A study of Mus musculus with 7 samples.

Results

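Transcripts of 7 genes of the sodium-potassium pump, its beta subunits Atp1b1, Atp1b2 and Atp1b3 and its FXYD regulators Fxyd1, Fxyd5, Fxyd6 and Fxyd7, were followed in microdissected suprachiasmatic nucleus (SCN), the seat of the main circadian pacemaker in the hypothalamus. The 7 genes were taken by name from the 55487 genes of the deposited table, and all of them were among the 14020 genes that had enough counts to be tested. They were selected on their counts in advanced glaucoma and control libraries, so their fold changes between these groups are a description and not an independent test. The advanced glaucoma group was 3 libraries from DBA/2J mice (scn_glauc_152, scn_glauc_153 and scn_glauc_154). This inbred strain carries a spontaneous Gpnmb mutation and develops high intraocular pressure and retinal damage. The control group was 4 libraries from DBA/2J-Gpnmb+SjJ mice (scn_cont_565, scn_cont_567, scn_cont_568 and scn_cont_570), the same strain background without that mutation. Gpnmb genotype and glaucoma therefore go together in this comparison and cannot be told apart. Both groups carry WT in the genotype label and were housed on a light-dark cycle with equal hours of each. The sources used here give no age, sex, hour of dissection or pooling of tissue. The design speaks of mice in each group, but no label ties a library to 1 animal, so the errors below measure the spread between libraries.

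The sodium-potassium pump uses ATP to move sodium out of a cell and potassium in, and so keeps the gradients that action potentials and most transporters run on. Its catalytic alpha subunit needs a beta subunit to fold, to reach the membrane and to bind potassium. FXYD proteins are small single-span membrane proteins that join the assembled pump and tune its affinity for sodium or potassium. In brain, beta 1 is the main partner in neurons, while beta 2, also known as the adhesion molecule on glia, is typical of astrocytes. Phospholemman (Fxyd1) is found in glia, ependyma and choroid plexus, and Fxyd7 is a brain-specific member of the family.

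Promoter sequence from RefSeq (GRCm38.p6, the same assembly as mm10) was found for 5 of the 7 genes, in windows of 300 bases that run from 250 bases before to 50 bases after a transcript start. A set of 4 windows is shown. It pairs Atp1b1 and Atp1b3, the 2 beta genes whose levels varied least between libraries, with the FXYD genes Fxyd1 and Fxyd6, which varied more. For Fxyd1 the coefficient of variation was 9.79% in control and 19.3% in advanced glaucoma. Counting alone gives 13.2% in its shallowest library. Whether spread goes with promoter sequence was not tested. The Fxyd1 window lies inside the gene as GENCODE M21 annotates it, at the start of a RefSeq transcript. Capitals mark a match, on either strand, to the E-box with the letters CACGTG, the CCAAT box with the letters CCAAT, the GC box with the letters GGGCGG, the TATA box with the letters TATAAA, the core element of ROR receptors with the letters AGGTCA, or the core of the cAMP response element with the letters TGACG. No matches overlapped each other. The sequences are written 5′ to 3′ on the gene's strand.
Atp1b1, chr1:164458306-164458605, minus strand: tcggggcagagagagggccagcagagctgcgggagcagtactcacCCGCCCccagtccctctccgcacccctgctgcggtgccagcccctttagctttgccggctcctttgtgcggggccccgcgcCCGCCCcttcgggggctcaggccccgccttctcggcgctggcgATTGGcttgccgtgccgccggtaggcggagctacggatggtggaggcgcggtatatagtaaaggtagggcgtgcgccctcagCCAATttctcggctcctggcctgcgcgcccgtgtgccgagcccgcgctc
Atp1b3, chr9:96364382-96364681, minus strand: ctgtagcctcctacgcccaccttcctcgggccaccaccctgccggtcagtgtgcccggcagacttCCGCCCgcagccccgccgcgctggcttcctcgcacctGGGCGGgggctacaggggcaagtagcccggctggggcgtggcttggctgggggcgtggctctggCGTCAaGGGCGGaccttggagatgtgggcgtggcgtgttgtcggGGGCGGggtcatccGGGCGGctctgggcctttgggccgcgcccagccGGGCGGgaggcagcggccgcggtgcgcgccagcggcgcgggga
Fxyd1, chr7:31054804-31055103, minus strand: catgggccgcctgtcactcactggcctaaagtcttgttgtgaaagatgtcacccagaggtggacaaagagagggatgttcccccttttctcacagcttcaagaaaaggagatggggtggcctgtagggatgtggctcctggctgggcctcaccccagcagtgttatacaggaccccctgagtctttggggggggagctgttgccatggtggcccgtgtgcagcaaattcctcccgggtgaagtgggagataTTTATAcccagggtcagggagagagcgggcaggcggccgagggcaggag
Fxyd6, chr9:45369935-45370234, plus strand: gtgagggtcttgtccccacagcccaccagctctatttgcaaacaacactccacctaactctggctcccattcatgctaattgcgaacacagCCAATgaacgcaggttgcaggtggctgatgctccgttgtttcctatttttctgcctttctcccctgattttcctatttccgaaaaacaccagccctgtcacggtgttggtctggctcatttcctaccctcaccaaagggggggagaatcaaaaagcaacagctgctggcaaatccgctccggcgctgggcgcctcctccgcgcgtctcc

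The windows of both beta genes were rich in G and C, at 71.0% for Atp1b1 and 76.0% for Atp1b3, against 58.7% for Fxyd1, 54.3% for Fxyd6 and a median of 52.7% over all 32851 windows in the table. Atp1b1 held 2 GC boxes and 2 CCAAT boxes, and Atp1b3 held 6 GC boxes and 1 TGACG. Fxyd1 held 1 match to TATAAA, on the opposite strand and within the 50 bases after the transcript start. Fxyd6 held 1 CCAAT box. Over all windows a GC box was present in 35.7%, a CCAAT box in 37.4%, a TATA box in 13.6% and TGACG in 20.8%. Neither CACGTG, present in 7.15% of all windows, nor AGGTCA, present in 16.3%, was found in these 4. A second Atp1b3 window in the table, chr9:96363666-96363965, held 1 CACGTG, 1 TGACG and no GC box. The window of Fxyd5 is not shown and held no match to any of these motifs. The level of Fxyd5 also varied more than those of the 2 beta genes, on 31 to 107 counts in a library. The motif counts above are matches of letters and not measured binding.

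Fxyd7 was higher in advanced glaucoma, and it was the member with the largest fold change of the 7. Its protein associates with the pump and lowers its apparent affinity for potassium. Levels are given in CPM, a gene's counts scaled to a common library total, with TMM normalization. Library values are given in the order scn_glauc_152, scn_glauc_153, scn_glauc_154 for advanced glaucoma and scn_cont_565, scn_cont_567, scn_cont_568, scn_cont_570 for control. Fxyd7 stood at 159, 192 and 196 CPM in advanced glaucoma, against 99.3, 142, 127 and 121 CPM in control. The groups did not overlap, and the lowest advanced glaucoma library lay above the highest control library. The means were 182 ± 20.3 CPM in advanced glaucoma and 122 ± 17.7 CPM in control (SD, n = 3 and n = 4), a log2 fold change of 0.57 (SE 0.113, 95% interval 0.33 to 0.80) or 1.48-fold. The gene was well counted, with 200 to 892 counts in a library. Its fold change was larger in size than that of 92.6% of all tested genes. In bulk tissue, a different number of cells of a type and a different amount of RNA per cell cannot be told apart.

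Fxyd7 was the 1 member past the threshold in the edgeR quasi-likelihood fit over all genes, an adjusted p under 0.05. Over all 14020 genes 0.471% passed, 0.0927% as higher and 0.378% as lower. It was also the 1 member with no overlap between the groups. Among all tested genes 8.02% had none, 4.12% in the higher direction and 3.91% in the lower one. The genes came from this comparison, so nothing is read from these counts. Fxyd7 lost its call without scn_cont_570, without scn_glauc_153 and without scn_glauc_154, with log2 fold changes of 0.56, 0.53 and 0.52, and when the mean of the myelin or of the astrocyte markers was a covariate, at 0.52 and 1.01.

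**Figure D1:**
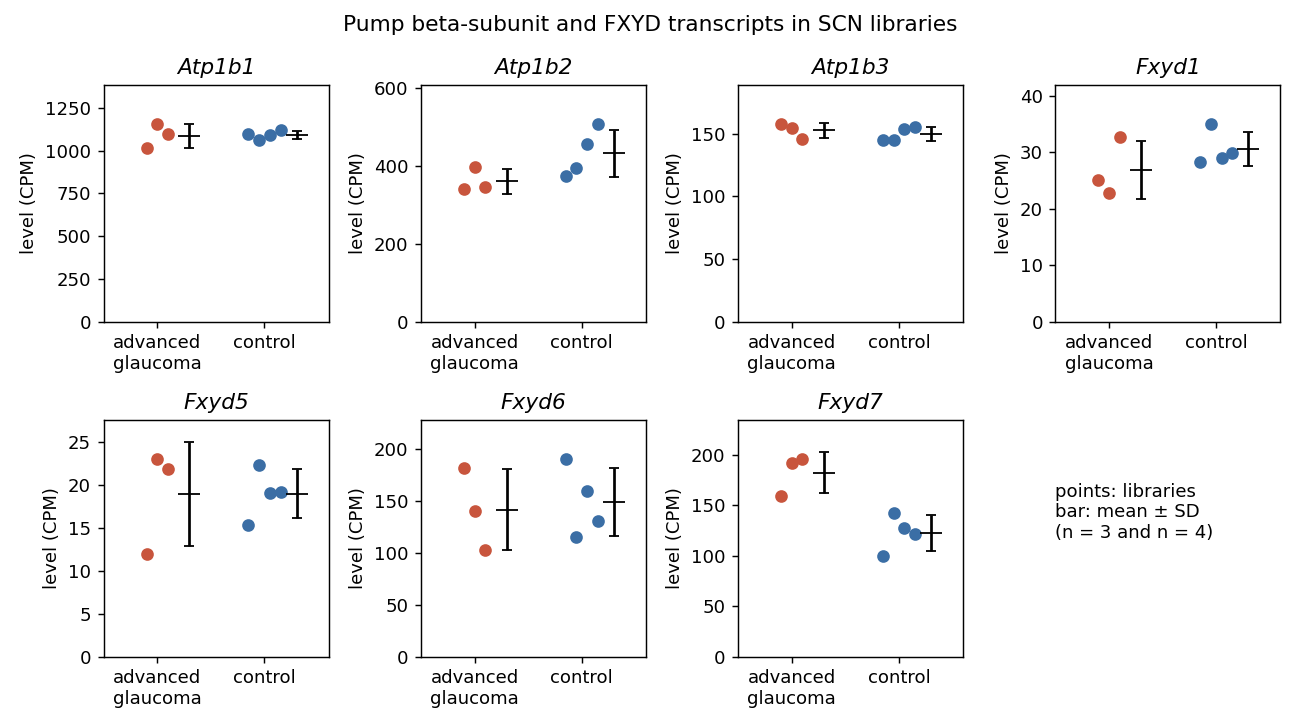
Level in CPM (y axis, from 0) of the 3 beta-subunit and 4 FXYD transcripts in each library, with advanced glaucoma (n = 3) left of control (n = 4) in each panel. Points are libraries and bars are means ± SD. The Fxyd7 libraries of advanced glaucoma, at 159 to 196 CPM, lie above all control libraries, at 99.3 to 142 CPM, while the groups overlap for the other 6 genes.

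No difference beyond the spread between libraries was found for Atp1b1, the main neuronal beta subunit gene. Atp1b1 was at 1012, 1153 and 1096 CPM in advanced glaucoma, against 1097, 1060, 1088 and 1119 CPM in control. Both the lowest and the highest value came from advanced glaucoma. Means were 1087 ± 70.5 CPM in advanced glaucoma and 1091 ± 24.3 CPM in control (SD, n = 3 and n = 4). The log2 fold change was -0.01, with a 95% interval of -0.18 to 0.17, so a difference of more than about 0.18 in either direction lies outside the interval. Control libraries differed by a coefficient of variation of 2.22%, close to the 2.13% that counting alone gives at the 2210 counts of the shallowest library. Atp1b1 (chr1:164437109-164458355) shares 575 exonic bases with Nme7, a gene of the other strand, and it is not known whether counting used strand. Nme7 had 818 counts over the 7 libraries, where Atp1b1 had 30720.

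Atp1b3, another beta subunit gene, was as steady. It stood at 157, 155 and 145 CPM in advanced glaucoma, against 144, 145, 153.9 and 155 CPM in control. The groups overlapped over nearly their whole range. Means were 152.4 ± 6.23 CPM in advanced glaucoma and 149.7 ± 5.70 CPM in control (SD, n = 3 and n = 4), with a log2 fold change of 0.02 and a 95% interval of -0.17 to 0.22.

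The glial beta subunit gene, Atp1b2, averaged less in advanced glaucoma than in control and did not pass the threshold. It was at 340, 398 and 346 CPM in advanced glaucoma, against 375, 395, 456 and 507 CPM in control. Libraries scn_glauc_152 and scn_glauc_154 lay below all controls, while scn_glauc_153 lay above scn_cont_565 and scn_cont_567. Means were 361 ± 31.6 CPM in advanced glaucoma and 433 ± 60.1 CPM in control (SD, n = 3 and n = 4). The log2 fold change was -0.27 (SE 0.104), and its 95% interval, which is not adjusted for the number of genes, ran from -0.48 to -0.05. With the mean of the astrocyte markers as a covariate, the log2 fold change was 0.20.

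Astrocyte markers stood lower in the same libraries. The mean log2 CPM of 12 astrocyte markers, none of them a pump or FXYD gene, was 0.26 to 0.29 below its control mean in the 3 advanced glaucoma libraries, while control libraries ran from -0.15 to 0.10. Their summed level was 3763 to 3836 CPM in advanced glaucoma and 3832 to 4417 CPM in control. Of the 12, 1 passed over all genes, the water channel gene Aqp4, which fell, against 0.378% of all tested genes that passed as lower. The members differed widely, with 9 below 0 and 3 above it. The filament gene Gfap had the largest difference, at 91.8, 117 and 90.8 CPM in advanced glaucoma, against 137, 358, 399.5 and 491 CPM in control (log2 fold change -1.81), and it did not pass. The glutamate transporter genes Slc1a3 and Slc1a2 stood at 0.003 and 0.06, and Mlc1 at 0.16. Without Gfap, which was left out after its values were seen, the mean of the other 11 was -0.16 to -0.14 in advanced glaucoma and -0.06 to 0.05 in control. None of the 12 was at 0 in any library. With those 11 as the covariate the log2 fold change was 0.30 for Atp1b2 and 1.11 for Fxyd7, and neither passed. The groups did not overlap on either version of the list, so these fits have little means of telling the covariate and the group apart.

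Ratios of counts within a library do not depend on its scaling. They are used here to compare libraries and not the levels of the genes, since a 3′ count is not divided by transcript length. The ratio of Atp1b1 to Atp1b2 was 3.01 ± 0.139 in advanced glaucoma and 2.55 ± 0.318 in control (SD, n = 3 and n = 4). Its lowest advanced glaucoma value, 2.90, lay just under the highest control value, 2.92. For Atp1b3 over Atp1b2 the ratio was 0.424 ± 0.0367 in advanced glaucoma and 0.349 ± 0.0346 in control (SD, n = 3 and n = 4), and the groups did not overlap, at 0.389 to 0.462 and 0.306 to 0.385. For Fxyd7 over Atp1b2, a brain-specific regulator set against the glial beta subunit, the ratio was 0.467 to 0.565 in advanced glaucoma and 0.239 to 0.359 in control. Against Atp1b1 the ratio of Fxyd7 was 0.157 to 0.178 in advanced glaucoma and 0.0905 to 0.134 in control. These ratios come from the comparison that picked the genes and carry no test.

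**Figure D2:**
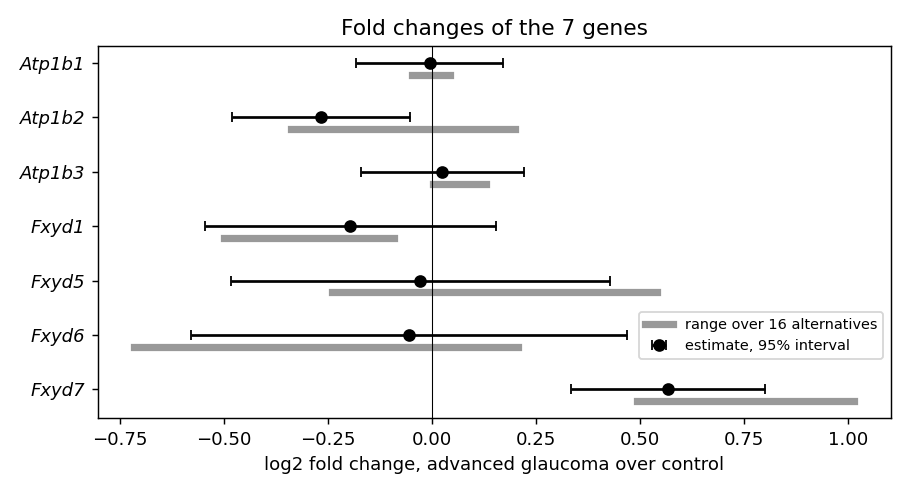
Log2 fold change of each gene, advanced glaucoma over control (x axis), with its 95% interval from the fit over all genes (black) and the range of the estimate over 16 alternative analyses (grey). Fxyd7 lies at 0.57, with alternatives from 0.49 to 1.01, while Atp1b1 and Atp1b3 stay near 0 and the widest grey bars are those of Fxyd6 and Fxyd5.

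For phospholemman the difference also lay within the spread between libraries. Fxyd1 encodes a target of protein kinases A and C, best known in heart muscle, that slows the pump until it is phosphorylated. It was at 25.0, 22.8 and 32.7 CPM in advanced glaucoma, against 28.3, 34.9, 29.0 and 29.9 CPM in control. Libraries scn_glauc_152 and scn_glauc_153 lay below all controls and scn_glauc_154 among them. The means were 26.8 ± 5.17 CPM in advanced glaucoma and 30.5 ± 2.99 CPM in control (SD, n = 3 and n = 4), with a log2 fold change of -0.20 and a 95% interval of -0.55 to 0.15. The gene rested on 57 to 166 counts per library, so that counting alone gives a coefficient of variation of 13.2% in the shallowest one. Markers of ependyma and choroid plexus, which carry phospholemman, and of tanycytes averaged -0.15 to 0.45 in advanced glaucoma and -0.30 to 0.30 in control (log2 CPM relative to control). Of 8 tested, 0 passed by edgeR, and their directions were mixed, with 4 above 0 and 4 below. Rax and Col23a1 had log2 fold changes of 1.37 and 1.24, while Ccdc153, Tmem212 and Foxj1 had -0.51, -0.25 and -0.17. The choroid plexus markers Folr1 and Kcnj13 were at 0 in some libraries, and the part of these cells in the Fxyd1 values was not tested.

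Fxyd5 encodes dysadherin, a regulator with a long extracellular part that also affects cell adhesion through beta 1. It was the least counted of the 7, with 31 to 107 counts in a library. Its level was 12.0, 23.1 and 21.9 CPM in advanced glaucoma, against 15.4, 22.3, 19.1 and 19.3 CPM in control. Advanced glaucoma libraries held both ends of the range. The group means were almost equal, 18.98 ± 6.06 CPM in advanced glaucoma and 19.02 ± 2.85 CPM in control (SD, n = 3 and n = 4). The 95% interval of the log2 fold change ran from -0.48 to 0.43, so these libraries are compatible with any difference in that range.

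Fxyd6, which encodes phosphohippolin, a member found in brain neurons, varied between libraries more than its counts allow for. It was at 182, 141 and 103 CPM in advanced glaucoma, against 190.6, 115, 159.6 and 131 CPM in control. The groups overlapped over most of their range. Means were 142 ± 39.3 CPM in advanced glaucoma and 149 ± 33.2 CPM in control (SD, n = 3 and n = 4), with a log2 fold change of -0.06 and a 95% interval of -0.58 to 0.47. The biological coefficient of variation that edgeR estimated for Fxyd6 was 20.5%, against 10.8% for genes of its level. Counting alone gives 5.18% in its shallowest library. For the other 6 genes that coefficient ran from 9.55% (Atp1b3) to 17.4% (Fxyd5), with a median of 14.7% over all tested genes.

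Within both groups the libraries stood in nearly opposite order for Fxyd6 and Fxyd7. In advanced glaucoma Fxyd6 was highest in scn_glauc_152 and lowest in scn_glauc_154, and Fxyd7 was lowest in scn_glauc_152 and highest in scn_glauc_154. In control Fxyd6 was highest in scn_cont_565 and lowest in scn_cont_567, and Fxyd7 was lowest in scn_cont_565 and highest in scn_cont_567. Library scn_cont_565 was the shallowest, with 2174456 counts of a range up to 5285093. Fxyd5 followed Fxyd7 at the low end, since scn_glauc_152 and scn_cont_565 were the lowest of their groups for both genes. The ratio of Fxyd7 to Fxyd6 was 0.873 to 1.89 in advanced glaucoma and 0.521 to 1.23 in control, so the groups overlapped. The ratio of Fxyd7 to Fxyd5 was steady in control, 6.29 to 6.65, and ran from 8.34 to 13.2 in advanced glaucoma. These orders rest on 3 and 4 libraries and were seen after the values were known.

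**Figure D3:**
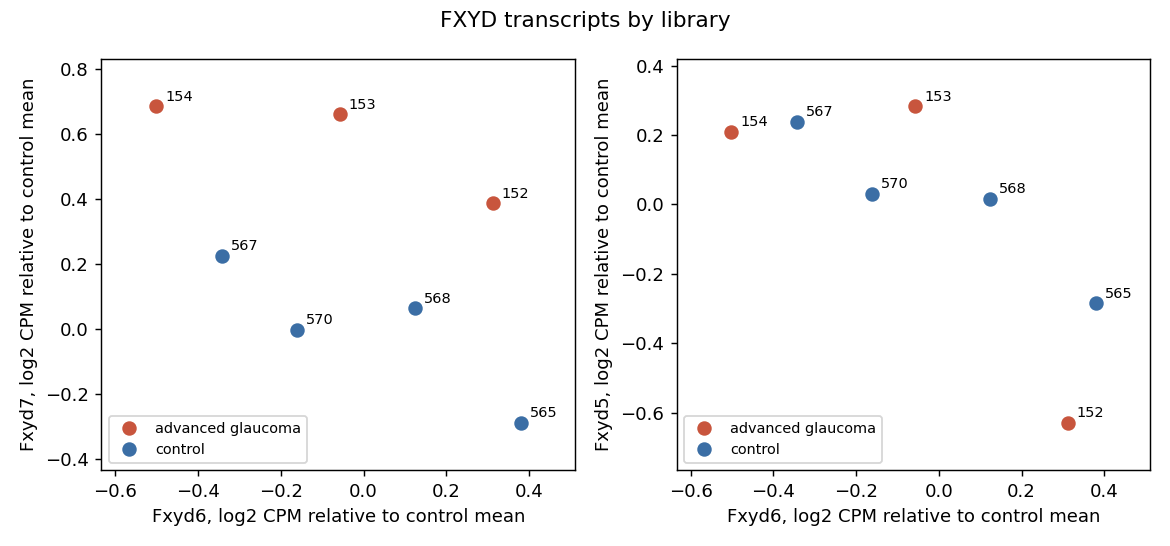
Level of Fxyd7 (left, y axis) and of Fxyd5 (right, y axis) against that of Fxyd6 (x axis) in each library, all as log2 CPM relative to the control mean, with the number from the library title beside each point. Libraries scn_glauc_152 and scn_cont_565 combine the highest Fxyd6 of their group with its lowest Fxyd7 and Fxyd5, and all advanced glaucoma points lie above all control points for Fxyd7.

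Of the 3 FXYD genes that sit side by side, Fxyd7 alone passed the threshold. Fxyd5, Fxyd7 and Fxyd1 lie in tandem on the minus strand of chromosome 7 (mm10, GENCODE M21): Fxyd5 at chr7:31032722-31042481, Fxyd7 at chr7:31042513-31051467 and Fxyd1 at chr7:31051678-31057199. The gap between Fxyd5 and Fxyd7 is 31 bases and the gap between Fxyd7 and Fxyd1 is 210 bases. No annotated exon of the 3 genes overlaps another gene apart from a microRNA inside Fxyd5, Mir7050, which is listed at 0. The letters AATAAA, the usual polyadenylation signal, end 24 bases before the annotated end of Fxyd7, which bears on a method that counts 3′ ends. The log2 fold changes in this order were -0.03, 0.57 and -0.20, with 95% intervals of -0.48 to 0.43, 0.33 to 0.80 and -0.55 to 0.15. The interval of Fxyd7 did not overlap that of Fxyd1 and overlapped that of Fxyd5, the least counted gene. Overlap of intervals is not a test of a difference between genes, and none was run.

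The next gene on that side, Lgi4, was named after its values were seen. It lies 2142 bases beyond Fxyd1 on the opposite strand and encodes a secreted protein known for its role in myelination of peripheral nerves. Lgi4 fell to 14.4, 19.0 and 12.2 CPM in advanced glaucoma, against 33.8, 24.5, 29.5 and 34.8 CPM in control. The groups did not overlap, and the log2 fold change was -1.003 (SE 0.196, edgeR adjusted p = 0.0113, ranging over its 16 alternatives from 3.73e-04 to 0.778). Its call was lost without scn_cont_570, scn_glauc_152 or scn_glauc_154, at log2 fold changes of -0.92, -0.96 and -0.88. It was also lost with the astrocyte covariate, at -0.997, and with the myelin covariate, at -0.64. Lgi4 overlaps the 3′ part of Fxyd3 on the other strand, and Fxyd3 had 43 counts in all.

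**Figure D4:**
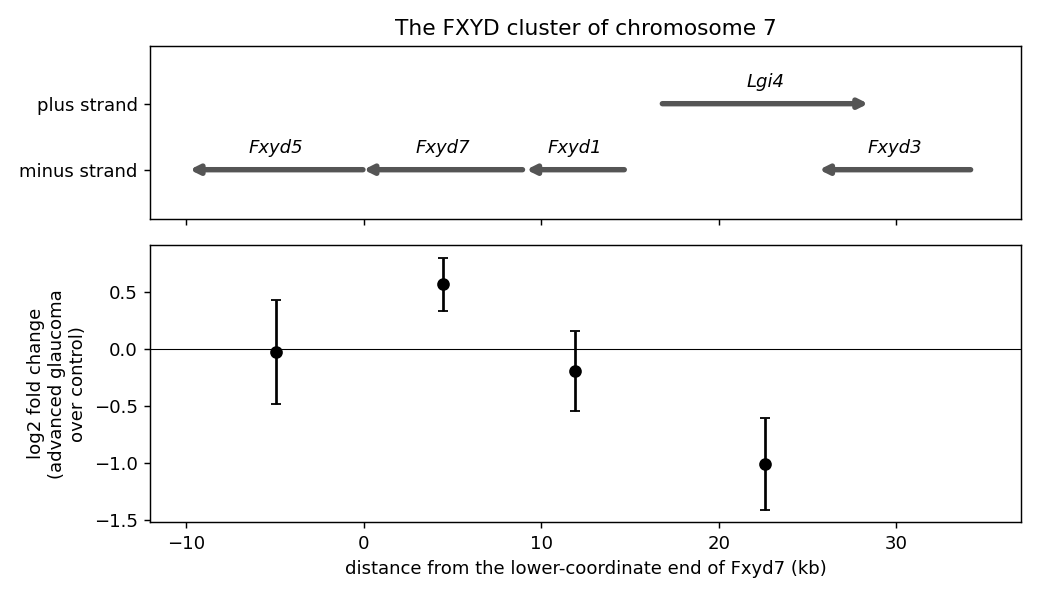
Genes of the FXYD cluster of chromosome 7 (top; arrows point in the direction of transcription) and their log2 fold changes, advanced glaucoma over control, with 95% intervals (bottom), against distance in kb from the end of Fxyd7 that has the lower coordinate. By position Fxyd7, at 0.57, stands between Fxyd5, at -0.03, and Fxyd1, at -0.20, and Lgi4 is at -1.003; Fxyd3 was too low to be tested.

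Fxyd6 (chr9:45370185-45396159) has Fxyd2, the FXYD member best known from kidney, 3509 bases downstream on the same strand. Fxyd2 was at 13.6, 8.19 and 16.3 CPM in advanced glaucoma, against 8.94, 10.7, 8.67 and 5.94 CPM in control. The groups overlapped and the gene did not pass (log2 fold change 0.59, SE 0.288, edgeR adjusted p = 0.619, ranging over its alternatives from 0.321 to 0.999). With the myelin or the astrocyte covariate its log2 fold change was -0.03 or -0.02, and its sign held in 14 of 16 alternatives. Atp1b2 (chr11:69599736-69605942) and Atp1b3 (chr9:96332655-96364442) share no exonic bases with another annotated gene.

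Other parts of the ion transport machinery showed no call in the main edgeR fit. Over all tested genes 1150, or 8.20%, had an unadjusted p under 0.05, against which the counts below can be read. Of 8 further pump and FXYD genes 4 were tested and 0 passed (edgeR), 2 had an unadjusted p under 0.05, and 1 was called by DESeq2 and 0 by limma-voom. In edgeR 1 passed as higher with no filter on low counts, with the neuron covariate, without scn_cont_567 or without scn_glauc_153. Of 12 pump partners, which include the Nkain family of pump-interacting proteins, 11 were tested and 0 passed by edgeR, DESeq2 or limma-voom, with 0 at an unadjusted p under 0.05. The smallest p there belonged to Ank2, a membrane scaffold of the pump (log2 fold change 0.19, edgeR adjusted p = 0.692), and to Nkain2 (log2 fold change 0.47, edgeR adjusted p = 0.731). The medians of these lists were 0.15 and 0.12, against -0.01 over all tested genes.

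Among transporters that run on the sodium gradient there was also no call in the main fit. With the astrocyte covariate without Gfap 1 passed, as lower. Of 17 tested, 0 passed by edgeR, DESeq2 or limma-voom and 3 had an unadjusted p under 0.05. The median log2 fold change was -0.09, with 12 of the 17 below 0. The glycine transporter gene Slc6a9 was at 50.2 CPM on average in advanced glaucoma and 66.1 CPM in control (log2 fold change -0.38, edgeR adjusted p = 0.337). The groups did not overlap for Slc6a9.

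Among 19 tested ATPases for calcium, protons and lipids, 0 passed by edgeR, DESeq2 or limma-voom, 2 had an unadjusted p under 0.05 and the median was 0.004. The lipid flippase gene Atp8a2 stood 0.32 higher on the log2 scale (edgeR adjusted p = 0.538), and Atp2b4, a plasma membrane calcium pump gene, 0.26 higher (edgeR adjusted p = 0.562). Among 8 genes of potassium clearance 0 passed by edgeR, DESeq2 or limma-voom and 2 had an unadjusted p under 0.05, with a median log2 fold change of -0.07. The potassium channel gene Kcnk2 was at 87.1 CPM on average in advanced glaucoma and 62.9 CPM in control (log2 fold change 0.48, edgeR adjusted p = 0.107, ranging over its alternatives from 0.00949 to 0.931). It passed when low counts were left unfiltered, and its log2 fold change was 0.11 with the astrocyte covariate and 0.29 with the myelin covariate. The cotransporter gene Slc12a2, a member of both lists, was at 34.3 CPM in advanced glaucoma and 43.4 CPM in control (log2 fold change -0.33, edgeR adjusted p = 0.602).

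Other cell markers bear on how the tissue samples compare. The 12 neuron markers, averaged as log2 CPM relative to control, lay at -0.05 to 0.15 in advanced glaucoma libraries and at -0.05 to 0.06 in control, with 0 of 12 past the threshold by edgeR. Their summed level was 7528 to 8139 CPM in advanced glaucoma and 7419 to 7776 CPM in control. Of the 12, 11 had a log2 fold change above 0 and 1 below. An unadjusted edgeR p under 0.05 was found for 2 of them, against 8.20% of all tested genes. With the mean of the 12 as a covariate Fxyd7 kept its call, at a log2 fold change of 0.54. That mean differed little between libraries, so the kept call does not show what part neuron content has in the Fxyd7 values. The 4 markers of GABA neurons, the main neurons of the SCN, were less even. They averaged -0.34, -0.48 and -1.09 in scn_glauc_152, scn_glauc_153 and scn_glauc_154, against -0.29 to 0.23 in control, with summed levels of 699 to 1097 CPM in advanced glaucoma and 1127 to 1578 CPM in control. All 4 had a log2 fold change below 0, with a median of -0.68, 3 had an unadjusted p under 0.05, and 0 passed by edgeR. SCN identity genes were lower in the same libraries. All 14 had a log2 fold change below 0 and 11 passed as lower, against 0.378% of all tested genes. Like the other lists, this one was drawn up with earlier results of these data known, so it is no independent measure of the tissue. That list stood at -2.33 to -1.97 in advanced glaucoma and at -0.26 to 0.15 in control. Genes of neighbouring hypothalamus stood at 0.34 to 1.19 in advanced glaucoma and at -0.61 to 0.69 in control. Of the 11, 8 had a log2 fold change above 0 and 3 below, with a median of 1.18. Of these genes 1, Nkx2-1, passed as higher, against 0.0927% of all tested genes. The groups did not overlap for 3 of the 11, all higher, against 4.12% of all tested genes in that direction. Myelin markers stood at -1.19, -0.62 and -0.04 in scn_glauc_154, scn_glauc_152 and scn_glauc_153, against -0.25 to 0.13 in control. All 12 had a log2 fold change below 0, with a median of -0.53, and 0 of the 12 passed by edgeR. An unadjusted edgeR p under 0.05 was found for 8 of the 12, against 8.20% of all tested genes. Their summed level was 2215 to 4706 CPM in advanced glaucoma and 4113 to 5270 CPM in control. The part of the GABA neuron, SCN and neighbouring lists in the Fxyd7 values was not tested.

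**Figure D5:**
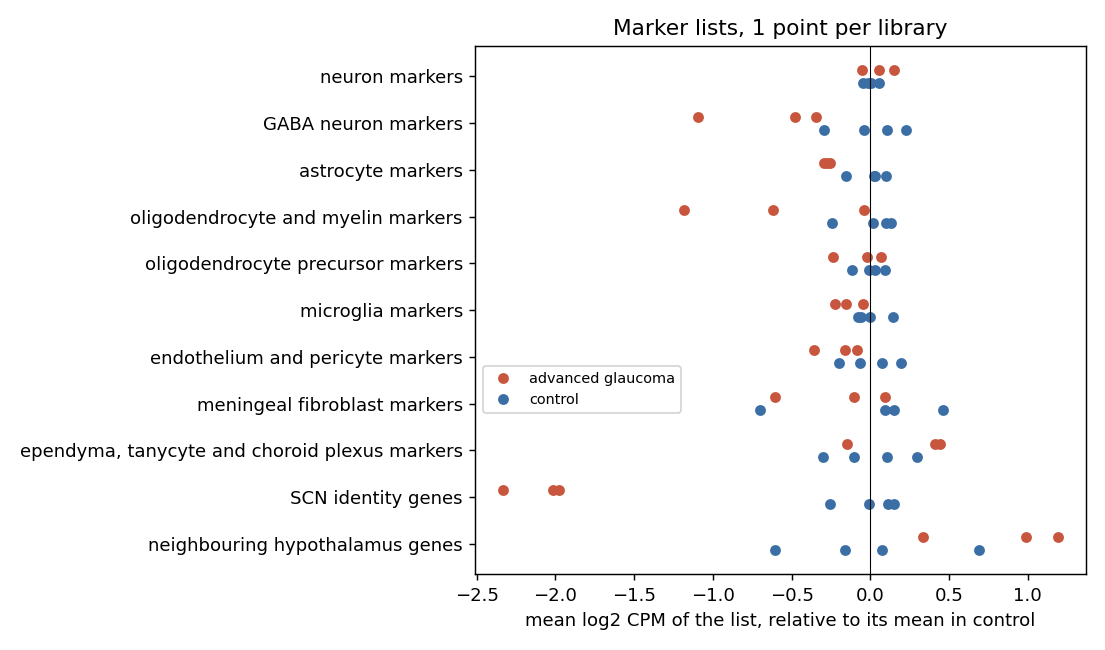
Mean log2 CPM of each marker list relative to its mean in control (x axis), with 1 point per library, advanced glaucoma above control in each row. The neuron markers of both groups lie between -0.05 and 0.15, the GABA neuron markers of advanced glaucoma lie from -1.09 to -0.34 and those of control from -0.29 to 0.23, the astrocyte markers of advanced glaucoma lie from -0.29 to -0.26, and the SCN identity genes of advanced glaucoma lie from -2.33 to -1.97.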

How the data were processed

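RNA from SCN microdissections was turned into 3′ barcoded cDNA (BRB-seq, MERCURIUS kit), per the labels' protocols. The deposited table holds raw counts per Ensembl gene, with 2174456 to 5285093 counts in a library. STAR, HTSeq, featureCounts, DESeq2 and mm10 are named in the submitters' processing notes; their roles, versions and settings, the use of strand and the handling of molecular identifiers are not given in the sources used here. Counting errors therefore cover counts that may not be independent molecules. Symbols were found for all but 346 identifiers, which held 0.0291% of the counts.

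The groups come from the sample titles. The counts were fitted in R 4.3.3 with edgeR 4.0.16 (filterByExpr by group, TMM, robust quasi-likelihood, group as the only term), with Benjamini-Hochberg adjustment over 14020 genes at 0.05. Each SE is |log2 fold change| divided by √F. Alternatives used RLE or plain library size, no filter, a mean of at least 10 CPM, DESeq2 1.42.0, limma-voom with sample weights (limma 3.58.1), the mean of myelin, astrocyte or neuron markers (log2 CPM, prior count 2) as a covariate, and each library left out, which makes 16. The astrocyte covariate without Gfap was added after the values were seen. The fit was tested on simulated data.

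The 7 genes, the marker lists and the gene lists were chosen with earlier results of these data known. The rule for named genes takes the 7, up to 4 members of each list that passed or the 2 with the smallest p, and the 3 genes most like each of the 7. Lgi4, Fxyd2 and Nme7 were named outside it, and Fxyd3 with them. Some genes taken by this rule are left unreported, but list counts hold them. No set test was run, and no list was tested for enrichment.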

Additional observations from a re-analysis of the deposited data

How the results depend on the processing

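The number of genes past the threshold, 66 with 53 lower, was 202 with no filter on low counts (108 lower), 17 with the myelin covariate and 25 with the astrocyte covariate, and 28 to 93 with each library left out, with 33 without scn_cont_570 and 28 without scn_glauc_154; the cause was not tested. The number of the 7 genes called was 1 in 11 of the 16 alternatives and 0 in the others, which were the myelin and astrocyte covariates and the fits without scn_cont_570, scn_glauc_153 or scn_glauc_154. Fxyd7 kept its direction in all 16, from 0.49 to 1.01. Atp1b3 and Fxyd1 also kept theirs in all 16, at 0.002 to 0.13 and -0.50 to -0.09, Atp1b2 in 15, and Fxyd5 and Fxyd6 in 13 each, at -0.24 to 0.54 and -0.72 to 0.21. Atp1b1 kept its sign in 9, within -0.05 to 0.04. With the astrocyte covariate without Gfap, added after the values were seen, 16 genes passed, 15 of them lower, and 0 of the 7. There Fxyd1 stood at 0.10, Fxyd5 at 0.64 and Fxyd6 at -1.09. No paired analysis was possible because the groups share no replicate numbers. Fxyd5 and Fxyd1 had the fewest counts, 535 and 805 over the 7 libraries.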

Other observations

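The genes whose level followed each of the 7 most closely were looked up over the 7 libraries, with each group centred to its own mean so that the difference between the groups played no part. The search covered 9860 named genes with a mean of at least 10 CPM. With this many genes and 7 libraries high values arise readily, and the libraries share depth and dissection, so Pearson's r is given as a description with no test. For Fxyd7 the closest were Aacs (r = 0.990), Ext2 (0.984) and Brwd1 (0.983), whose log2 fold changes ran from -0.18 to 0.03. For Fxyd6 they were Zfp608 (r = 0.993), Cyp4f15 (0.987) and Tusc2 (0.984), and for Fxyd5 they were Frrs1l (0.995), Fam189a1 (0.991) and Lrrn2 (0.990). For Fxyd1 they were Sv2c (r = 0.994), Sft2d3 (0.987) and Stk19 (0.985). Among the beta genes, Atp1b1 was closest to Fscn1 (r = 0.979), Ogdh (0.978) and Grm7 (0.977), Atp1b2 to Nalcn (0.991), Rab6a (0.991) and St7l (0.987), and Atp1b3 to Ccl27a (0.990), Taf9b (0.979) and Ccdc50 (0.977). No gene appeared for more than 1 of the 7.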
